A study of Mus musculus with 3 samples.

Results

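The adult hemoglobin genes *Hba-a1* and *Hba-a2* (alpha chains) and *Hbb-bs* and *Hbb-bt* (beta chains) were followed as 4 members of the 31053 genes counted in single cells of the mouse iridocorneal angle and corneal limbus. These genes were selected on their own UMI counts in these libraries, so that their levels, by cluster label and by library, are given as a description with no test. The question was whether their UMIs (unique molecular identifiers, each standing for 1 captured RNA molecule) were spread thinly over all cells, as free RNA in the droplets would be, or lay in few cells.

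Hemoglobin is a tetramer of 2 kinds of chain around heme and fills the red blood cell. The chains are made in erythroid precursors and in reticulocytes, which have lost the nucleus but still hold mRNA, and heme for them is made by a pathway whose erythroid first enzyme is ALAS2. The cells of the outflow tissue, the limbal epithelium and the vessel walls are not known as a main source of hemoglobin, and blood enters such a sample with the vessels that are dissected with it.

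Each of 3 droplet libraries held pooled eyes of 2 to 3 mice, male and female, at 6 weeks of age. Both control libraries were from *Angpt1* flox/flox mice and the third was from *Angpt1* flox/flox;Wnt1Cre+ mice (*Angpt1*ΔNC), in which Cre driven by Wnt1 removes the floxed gene in neural crest cells. All groups carried the floxed allele and came from a line crossed for 2 generations onto ICR mice to give albino litters, a mixed background. With 1 *Angpt1*ΔNC library there was no replicate of that genotype, and no test between genotypes was made. *Angpt1*, the targeted gene, was at 37.8, 39.3 and 0.391 UMIs for each 1000000 in the kept cells of control replicate 1, control replicate 2 and *Angpt1*ΔNC.

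The libraries held 11255, 12625 and 8614 called barcodes, in that order, of which the deposited cluster labels kept 9076, 10160 and 6772. Median depth of kept cells was 6330, 6394 and 7444 UMIs. Pairs of libraries shared 36, 28 and 21 barcode sequences, and none of these had at least 100 hemoglobin UMIs in both libraries of its pair. Intervals are exact 95% intervals (binomial for shares, Poisson for sums) and cover counting error only.

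*Hba-a1* (ENSMUSG00000069919) lies on chromosome 11 from 32283511 to 32284465 on the plus strand of GRCm38, and *Hba-a2* (ENSMUSG00000069917) follows it from 32296489 to 32297298. *Hbb-bs* (ENSMUSG00000052305) lies on chromosome 7 from 103826534 to 103828096 on the minus strand, and *Hbb-bt* (ENSMUSG00000073940) from 103812524 to 103813996. All 4 are protein-coding genes of 3 exons in the annotation. The coding sequences of each pair differed at 1 base, and that base is shown in capitals here because the split of UMIs within each pair is a result below. The alpha coding sequences, of 429 bases with the stop codon, differed by C381T (*Hba-a1* base, position, *Hba-a2* base, counted from the A of the start codon), and the stretch runs from base 351 to base 411.
Hba-a1: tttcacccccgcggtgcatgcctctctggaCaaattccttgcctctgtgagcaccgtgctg
Hba-a2: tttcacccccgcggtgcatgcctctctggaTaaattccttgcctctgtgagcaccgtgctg
The beta coding sequences, of 444 bases, differed by C417T, and the stretch runs from base 387 to the stop codon.
Hbb-bs: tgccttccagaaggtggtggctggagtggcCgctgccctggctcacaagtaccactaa
Hbb-bt: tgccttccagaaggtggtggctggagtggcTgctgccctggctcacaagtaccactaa

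In the last 500 bases of the annotated transcripts, 321 of 411 windows of 90 bases of *Hba-a1* also stood in *Hba-a2*, and 305 of 411 of *Hba-a2* in *Hba-a1*. For *Hbb-bs* and *Hbb-bt* the counts were 252 and 251 of 411. The alpha genes were annotated with the same bases after the stop codon over the length of the shorter one, whereas those of the beta genes differed. Reads from such windows could be given to either gene or to neither, so that the split within the alpha pair is uncertain, and the sum of a pair is the safer quantity. Reads given to neither gene would be missing from the sum too, and their number was not tested.

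Because the 4 genes were counted in the same barcodes, the stretch before the start of 1 alpha and 1 beta gene is also given, from RefSeq (GRCm38.p6). Capitals mark the TATA box (searched as ATATAA), the CCAAT box (searched as CCAAT) and the CACC box (searched as CACCC), each on both strands of the 250 bases before and 50 bases after the RefSeq start, which is not the gene end given above. The Hba-a2 stretch is chr11:32296372-32296491 on the plus strand and the Hbb-bs stretch is chr7:103827929-103828048 on the minus strand.
Hba-a2: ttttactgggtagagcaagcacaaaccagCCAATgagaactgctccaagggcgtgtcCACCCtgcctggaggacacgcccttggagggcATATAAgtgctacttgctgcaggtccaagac
Hbb-bs: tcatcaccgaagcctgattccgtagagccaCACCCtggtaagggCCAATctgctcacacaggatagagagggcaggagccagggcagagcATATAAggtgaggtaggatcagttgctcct
The windows of *Hba-a1* and *Hba-a2* were the same in all 297 bases that overlapped once shifted by 3 bases. ATATAA began 28, 31, 30 and 29 bases before the start of *Hba-a1*, *Hba-a2*, *Hbb-bs* and *Hbb-bt* and stood in 9.82% of 32851 promoter windows. CCAAT stood in 37.4% and CACCC in 57.5% of all windows, and both stood in all 4 of these. TGATAA was found before *Hba-a1* and *Hba-a2* (9.05% of all windows) and AGATAA before *Hbb-bs* (11.2%), and neither overlapped the other 3 motifs. A match is a description of these letters only.

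Hemoglobin UMIs were many and lay mostly outside the kept cells. All called barcodes held 743705, 490750 and 908188 of them in control replicate 1, control replicate 2 and *Angpt1*ΔNC. Barcodes that failed the study's filters held 78.9%, 75.4% and 69.5% of these. Barcodes that passed the filters but were taken out as doublets held 4.88%, 11.2% and 3.47%, and the kept cells held 16.2%, 13.4% and 27.0%.

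In the kept cells *Hbb-bs* was the most counted member in each library, with 77947, 44010 and 159446 UMIs. *Hba-a1* followed with 30250, 15983 and 37463, and *Hbb-bt* had 12149, 5464 and 22204. *Hba-a2* had 472 and 308 UMIs in the control libraries and 26018 in *Angpt1*ΔNC. The order of *Hba-a2* and *Hbb-bt* thus differed between the genotypes' libraries, with *Hba-a2* last in both controls and above *Hbb-bt* in *Angpt1*ΔNC. These are counts of molecules, not corrected for length. The transcripts were of 554 to 703 bases.

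The UMIs were not spread over the cells. Of the kept cells 83.9%, 90.2% and 75.7% had none. Another 1255, 879 and 1294 cells had exactly 1 UMI, and 149, 70 and 245 had 2. At the other end, 22, 17 and 50 cells had at least 1000 and together held 95.1%, 89.5% and 98.1% of the hemoglobin UMIs of all kept cells. The highest cell had 9458, 7232 and 11584.

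Between those ends there were few cells. In every library 9 kept cells had 10 to 99 hemoglobin UMIs. The top 1% of kept cells held 98.8%, 98.6% and 99.2% of the UMIs, and as few as 9, 7 and 17 cells held 50% of them. Cells with at least 100 hemoglobin UMIs are called hemoglobin-rich from here on, a threshold chosen after the counts were seen. There were 29, 27 and 56 of them among kept cells, or 0.320% (interval 0.214 to 0.459), 0.266% (0.175 to 0.386) and 0.827% (0.625 to 1.07).

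**Figure D1:**
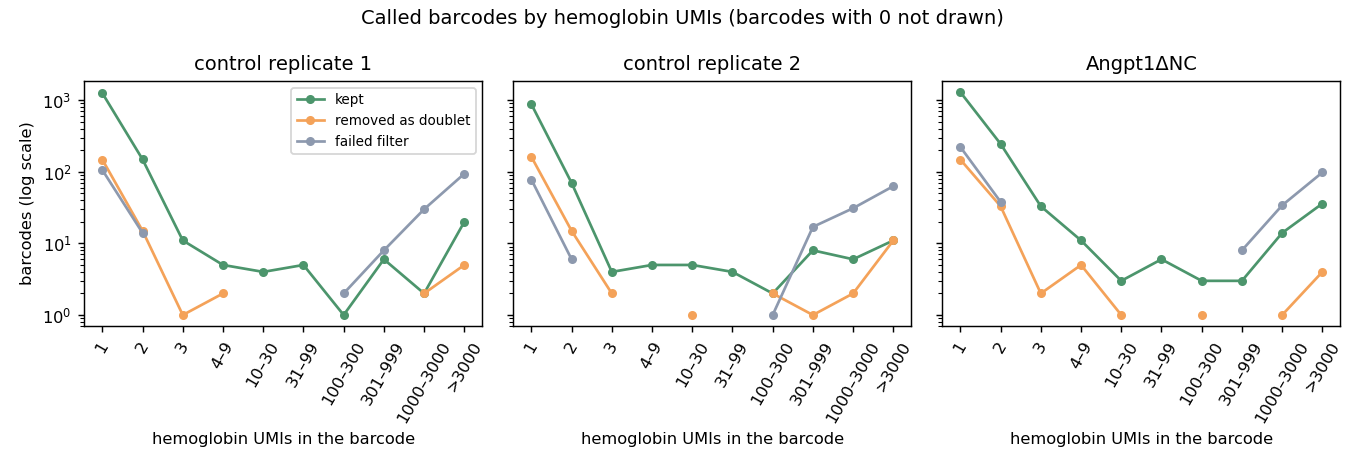
Number of called barcodes (log axis) in 10 unequal bins of hemoglobin UMIs, in 1 panel per library, with kept cells in green, barcodes removed as doublets in orange and barcodes that failed a filter in grey. A bin with no barcode is not drawn. Barcodes with 1 or 2 UMIs and barcodes with over 1000 stand apart, with 9 kept cells a library from 10 to 99.

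Genes that mark other cell types were read the same way and differed among themselves. *Krt12*, the corneal keratin, was detected in 12.1%, 8.04% and 7.09% of the kept cells outside clusters 2 to 5, and the top 1% of those cells held 16.8%, 20.3% and 20.1% of its UMIs. *Ttr*, a carrier protein of the retinal pigment epithelium, was detected in 14.6%, 10.9% and 6.38% of cells outside cluster 1, with 38.2%, 38.5% and 50.5% of its UMIs in the top 1%. No cell outside those clusters had 100 *Krt12* UMIs, and 1 cell outside cluster 1 had 100 or more of *Ttr*. *Sag* (arrestin of the photoreceptors) lay in fewer cells, with 73.5%, 74.6% and 94.9% of its UMIs in the top 1% of all kept cells, though 1, 0 and 0 cells reached 100 UMIs. The genes for this comparison were picked after their values were seen.

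Most of the hemoglobin was in barcodes that held little else. In 138, 118 and 144 called barcodes hemoglobin made up over 70% of the UMIs, a threshold placed after seeing a gap in that share. These hemoglobin-filled barcodes held 84.6%, 82.9% and 73.2% of all hemoglobin UMIs. Their median depth was 5173, 3795 and 5074 UMIs, with a median of 106, 83 and 87 genes, and hemoglobin was 96.0%, 95.8% and 96.9% of their UMIs at the median. The filter of at least 200 genes removed 131, 111 and 136 of them. They were 1.23%, 0.935% and 1.67% of the called barcodes. Summed rod markers stood in them at 18.2, 2.40 and 0 UMIs for each 10,000 outside hemoglobin, against 1.12, 0.209 and 0.0231 in kept cells under 10 hemoglobin UMIs, and their part in the result was not tested.

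**Figure D2:**
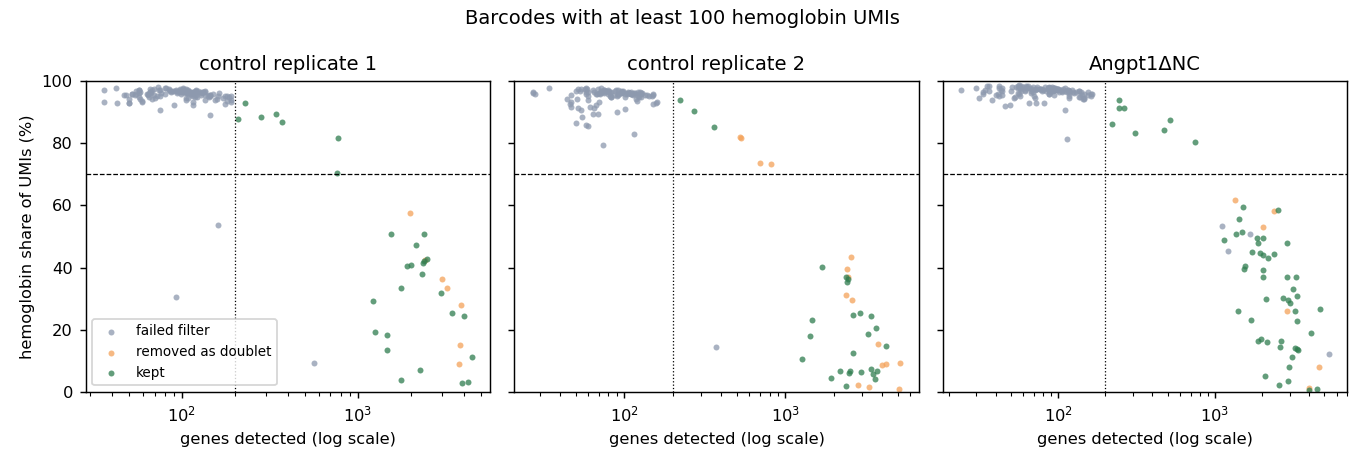
Share of a barcode's UMIs that were hemoglobin (%) against its number of genes (log axis) for every called barcode with at least 100 hemoglobin UMIs, coloured by what became of it. The dotted line is the filter of 200 genes and the dashed line the share of 70%. One set of barcodes sits above 70% and mostly left of the filter, the other below 62% and mostly above 1000 genes.

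The filled barcodes held transcripts of the red cell program. *Alas2*, the erythroid enzyme that starts heme synthesis, had 1617 UMIs in 124 of 138 filled barcodes of control replicate 1, 1003 in 104 of 118 in control replicate 2 and 1333 in 129 of 144 in *Angpt1*ΔNC. Kept cells under 10 hemoglobin UMIs had 25, 14 and 24 *Alas2* UMIs in all, in 0.277%, 0.138% and 0.358% of the cells. *Fech*, which inserts iron into protoporphyrin to form heme, was detected in 54.3%, 49.2% and 53.5% of the filled barcodes. *Bpgm*, which makes the 2,3-bisphosphoglycerate that lowers oxygen affinity, was detected in 56.5%, 36.4% and 48.6%, and *Slc25a37* (mitoferrin 1) in 51.4%, 33.1% and 13.9%. Unlike *Alas2*, the last 3 are also expressed by other cells, with *Bpgm* in 38.5%, 44.1% and 33.7% of kept cells under 10 hemoglobin UMIs.

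Of 21 measured genes of an erythroid list, 12 were higher for each 10,000 UMIs outside hemoglobin in the filled barcodes than in those other kept cells in all 3 libraries. The same held for 315 of 19300 genes overall (1.63%). The erythroid transcription factors and an early membrane gene were at or near 0 in the filled barcodes, with *Klf1* at 1, 2 and 0 UMIs, *Rhag* at 0, 0 and 1, and *Gata1* at 0 in all 3. *Slc4a1* (band 3, the anion exchanger of the red cell membrane) had 4, 13 and 5 UMIs.

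A single barcode of control replicate 2 differed from the other filled barcodes. It held 13 of the 13 *Slc4a1* UMIs of the filled barcodes there, 28 *Trim10*, 12 *Urod* and 36 *Alas2* UMIs, over 701 genes and 7147 hemoglobin UMIs, and it was removed as a doublet. *Urod* encodes an enzyme of the heme pathway. The barcode was singled out after its values were seen.

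The embryonic and minor globins were scarce. *Hbb-bh1*, an embryonic beta-like gene, had 13, 5 and 3 UMIs in filled barcodes and none in kept cells under 10 hemoglobin UMIs. *Hbq1a* (theta) had 9, 8 and 17 against 1, 1 and 3. *Hba-x* and *Hbb-y* had 0 UMIs in filled barcodes of each library. *Cygb* (cytoglobin), which is not a red cell globin, had 0, 1 and 0 UMIs in filled barcodes but was detected in 29.5%, 29.3% and 20.5% of the kept cells under 10 hemoglobin UMIs.

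Other blood cells were read by their own lists. The 9 neutrophil genes had 0 UMIs in filled barcodes in each library. In kept cells under 10 hemoglobin UMIs they stood at 0.886, 0.739 and 0.635 for each 10,000 outside hemoglobin. Of 8 platelet genes 7 had none. The platelet list's summed level was 0, 0.400 and 1.10 UMIs for each 10,000 outside hemoglobin. In kept cells under 10 hemoglobin UMIs it was 1.25, 1.63 and 1.20. The levels in kept cells do not measure platelets or neutrophils. Over all kept cells the platelet list stood highest in clusters 24 and 25, at 24.4 and 24.9, with 1 gene over 2-fold higher in each. The neutrophil list stood highest in cluster 23, at 12.9, and then in cluster 3, at 2.74. A filled barcode held a median of only 185, 143.5 and 140.5 UMIs outside hemoglobin. Both lists are thus near the floor there, and their zeros do not show that these blood cells were absent. Other counts of 0 in filled barcodes given above have the same limit. Of the heme synthesis list 4 of 9 genes were higher in the filled barcodes in all 3 libraries, and of the list for hemoglobin and iron clearance 4 of 13.

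By a rule on fold in the 527 called barcodes with at least 100 hemoglobin UMIs, against all other called barcodes and with hemoglobin left out of the depth, *Alas2* led, at 35.9 against 0.00292 UMIs per 10,000 (log2 fold change 8.45 with 0.1 added). *Ube2l6*, a ubiquitin-family conjugating enzyme, followed at 7.74 against 0.156 (log2 4.94), then *Fech* (4.20) and *Mkrn1* (4.07). *Fam46c*, *Fam220a*, *Isg20*, *Slc25a37* and *March2* were also among the 10 with the highest fold, at log2 3.07 to 3.59. *Alas2* was detected in 85.4% of these barcodes and the others in 34.0% to 73.8%. Within the filled barcodes *Slc25a37* stood at 39.2, 26.0 and 7.71 UMIs per 10,000 outside hemoglobin.

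Hemoglobin-rich cells that were kept fell into 2 kinds. Of the 29, 27 and 56, only 7, 3 and 8 were hemoglobin-filled. Those were labelled cluster 7 in 6, 3 and 8 cases, with 1 more in cluster 9 of control replicate 1. Cluster 7 led with *Pcp4*, and 3 of 4 ciliary epithelium markers were over 2-fold higher in it than in other labels, so it is called ciliary epithelium-like here. In the same label 6 of 8 rod, 4 of 5 melanocyte and 3 of 8 pericyte and smooth muscle genes were also over 2-fold higher. The summed ciliary epithelium list was not particular to cluster 7, at 348 UMIs for each 10,000 outside hemoglobin. It stood at 685, 240 and 156 in clusters 1, 8 and 9, with 1 of 4 genes over 2-fold higher in each. The filled cells of cluster 7 had a median of 313, 271 and 288 genes. Its cells under 10 hemoglobin UMIs had 2379, 2197 and 2712.

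The summed ciliary epithelium markers were lower in those filled cells of cluster 7. They stood at 85.6, 32.2 and 18.7 UMIs for each 10,000 outside hemoglobin, against 323, 305 and 409 in the cells under 10 hemoglobin UMIs of the same label. The hemoglobin of this label thus lay in 17 cells with few genes and in 1 other rich cell.

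The other rich cells, 22, 24 and 48 in number, carried a full set of genes beside the hemoglobin. Their median number of genes was 2289, 2588 and 2471, against 2128, 2096 and 2213 in kept cells under 10 hemoglobin UMIs. Hemoglobin made up 0.667% to 59.6% of their UMIs, so that none lay near the 70% line. In the same cells *Alas2* had 209, 75 and 382 UMIs.

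*Alas2* was next read against the hemoglobin of the same barcodes. For each 10,000 hemoglobin UMIs it had 25.7 (interval 24.5 to 27.0), 24.7 (23.1 to 26.2) and 20.1 (18.997 to 21.2) UMIs in filled barcodes. In the rich kept cells that were not filled it had 27.7 (24.04 to 31.7), 15.8 (12.4 to 19.8) and 19.8 (17.8 to 21.9). The intervals overlapped in control replicate 1 and *Angpt1*ΔNC but not in control replicate 2. In kept cells under 10 hemoglobin UMIs the ratio was higher, at 155 (100.3 to 229), 132 (72.2 to 222) and 124 (79.5 to 185), from 25, 14 and 24 *Alas2* UMIs.

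Over the 3 libraries cluster 9 had 22, cluster 24 had 22, cluster 7 had 18 and cluster 8 had 13, or 75 of 112 rich kept cells, and 23 of 35 labels had at least 1. The libraries differed in this, since these 4 labels held 14 of 29, 14 of 27 and 47 of 56 rich kept cells (48.3%, 51.9% and 83.9%) and 26.2%, 23.0% and 18.8% of all kept cells. Clusters 8 and 9 are melanocyte-like by the melanocyte list (5 of 5 genes over 2-fold higher in each), and cluster 24 is macrophage-like (8 of 8 genes, with *C1qa*, *C1qb* and *C1qc* among its 10 leading genes). Barcodes removed as doublets held 7, 16 and 6 rich ones, or 0.751%, 1.35% and 1.24% of those removed. The labels came from clustering of these same cells, so the counts are a description.

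In the macrophage-like cluster 24, 3 of 515 cells of control replicate 1 were rich, 1 of 659 of control replicate 2 and 18 of 401 of *Angpt1*ΔNC. The shares were 0.583% (interval 0.120 to 1.69), 0.152% (0.00384 to 0.843) and 4.49% (2.68 to 7.002). In cluster 9 they were 3 of 711 (0.422%), 7 of 799 (0.876%) and 12 of 292 (4.11%, interval 2.14 to 7.07). In cluster 8 they were 1 of 839 (0.119%), 3 of 767 (0.391%) and 9 of 442 (2.04%, interval 0.935 to 3.83). In all 3 labels the *Angpt1*ΔNC library had the highest share, but it is 1 library.

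Markers of the label were counted in these cells too. The rich cells of cluster 24 that were not filled had 204, 255 and 226 UMIs of the 8 macrophage genes for each 10,000 outside hemoglobin, against 191, 205 and 193 in the cells of the label under 10 hemoglobin UMIs. The melanocyte genes stood at 420, 506 and 587 in the rich cells of cluster 8, against 459, 515 and 565. In cluster 9 they stood at 484, 468 and 485 in the rich cells that were not filled, above the 317, 356 and 429 of its cells under 10 hemoglobin UMIs. All 18 rich cells of cluster 24 in *Angpt1*ΔNC and all 12 of cluster 9 had UMIs of their label's markers. The labels came from clustering of these same cells, so that markers of the label were bound to be found in them. The marker values of this paragraph are thus no separate check of cell identity.

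Genes that handle heme and iron were read in the rich macrophage-like cells of *Angpt1*ΔNC, the one library with more than 3. *Hmox1*, which breaks heme down, was at 18.7 UMIs for each 10,000 outside hemoglobin (interval 16.4 to 21.2 over 18 cells), against 10.9 in the 382 cells of the label under 10 hemoglobin UMIs. In control replicate 1 it was at 51.9 (42.5 to 62.8) in 3 cells against 14.1, and in control replicate 2 it was lower in the 1 rich cell, at 7.35 (1.52 to 21.5, from 3 UMIs) against 12.2. *Blvrb*, which reduces biliverdin, was at 5.75 (4.51 to 7.24) against 3.75 in *Angpt1*ΔNC. *Slc40a1* (ferroportin) was at 0.158 (0.0191 to 0.570) against 0.174, and *Fth1*, a ferritin chain, at 337 against 350. Cells of 1 library are not replicates, and the intervals cover counting of UMIs only.

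**Figure D3:**
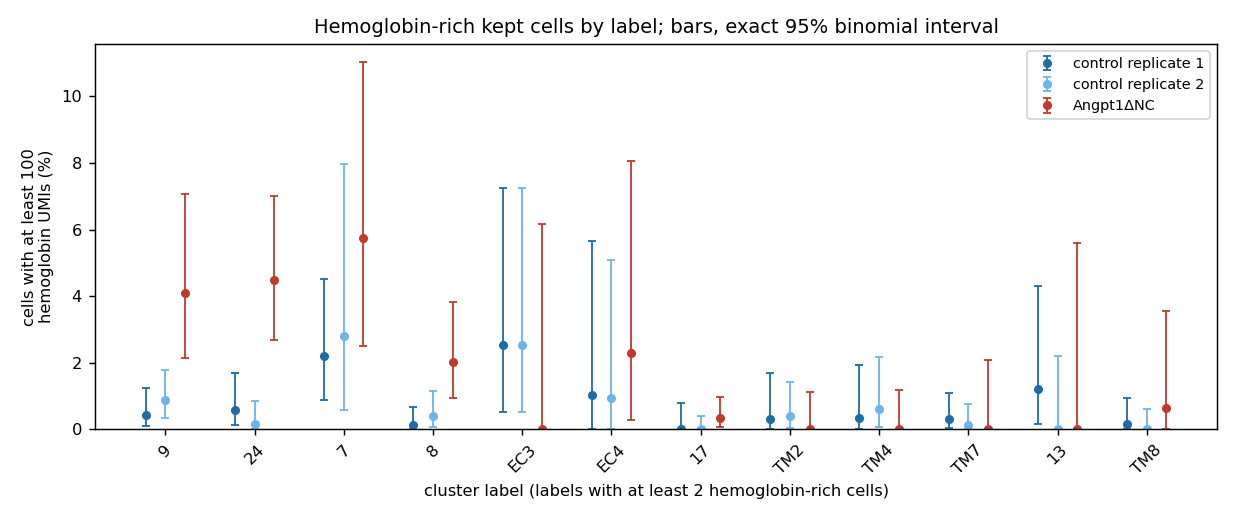
Share of kept cells with at least 100 hemoglobin UMIs (%), with the exact 95% binomial interval, for each label with at least 2 such cells over the 3 libraries, in order of their number. The *Angpt1*ΔNC points of clusters 9, 24, 7 and 8 sit at 4.11%, 4.49%, 5.76% and 2.04%, above both controls, and those of EC3, TM2, TM4, TM7 and 13 at 0.

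Blood endothelial labels held few rich cells in number but a high share for their size in both controls. In *Angpt1*ΔNC the interval of their share held that of all kept cells. In the blood endothelial labels EC2 to EC4, which carry the endothelial markers, 4 of 246, 5 of 263 and 2 of 182 cells were rich, or 1.63%, 1.90% and 1.10%, with intervals of 0.445 to 4.11, 0.620 to 4.38 and 0.133 to 3.91, where all kept cells had 0.320%, 0.266% and 0.827%. EC3 alone had 3 of 118 in each control (2.54%, interval 0.527 to 7.25) and 0 of 58 in *Angpt1*ΔNC (upper bound 6.16). In Schlemm's canal (SC) and lymphatic (LEC) endothelium there were none of 49, 64 and 27, which allows a share of up to 6.12%, 4.69% and 11.1% by a limit of 3 counts, and of up to 7.25%, 5.60% and 12.8% by the exact interval. In TM1 to TM11, the labels of the trabecular meshwork reclustering, 7 of 2803, 6 of 3324 and 2 of 1946 cells were rich, or 0.250%, 0.181% and 0.103%. In clusters 2 to 5 the counts were 2 of 1143, 1 of 1153 and 0 of 1172. Each of these 4 labels had 5 of 6 corneal and limbal epithelium genes over 2-fold higher. Among them cluster 2 led with cell division genes and cluster 3 with *Psca*, *Asprv1* and *Krt19*.

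Across these labels the range of the hemoglobin level was wide and went with the rich cells. Cluster 7 stood at 158, 238 and 305 UMIs per 10,000 and cluster 24 at 38.5, 2.75 and 224. The label with the highest level was cluster 7 in both controls and cluster 9 in *Angpt1*ΔNC, at 331. The ratio of the highest to the lowest label of at least 20 cells was at least 1536 in control replicate 1, where TM11 had no UMI, and 5391 and 1782 in the other libraries. Without cells of at least 10 hemoglobin UMIs it was at least 7.67 and then 10.3 and 3.52.

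In the remaining cells, with fewer than 10 hemoglobin UMIs, hemoglobin was low and was found in every label of at least 20 cells but TM11 of control replicate 1. They held 1613, 1060 and 1934 UMIs in 9038, 10124 and 6707 cells, a mean of 0.178, 0.105 and 0.288 per cell. In 1420, 958 and 1583 of them at least 1 UMI was found. If UMIs fell on cells in proportion to depth, 1397, 979 and 1543 cells would have had at least 1. If every cell had the same chance, 1477, 1006 and 1680 would have. The observed counts lay between the 2 values in control replicate 1 and *Angpt1*ΔNC, and below both in control replicate 2.

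The mean per cell rose with depth but less than in proportion. Cells were split into 5 equal groups by depth within each library. From the shallowest to the deepest group the median depth rose 5.48-, 4.20- and 5.09-fold, and the mean hemoglobin UMIs per cell rose 2.29-, 2.37- and 3.34-fold. In *Angpt1*ΔNC the mean went from 0.156 (interval 0.135 to 0.178) to 0.520 (0.482 to 0.560). In the controls it went from 0.122 to 0.278 and from 0.0751 to 0.178. For each 10,000 UMIs the level therefore fell, from 0.431 to 0.142, from 0.244 to 0.107 and from 0.486 to 0.232.

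Labels followed the same course. Over 34, 34 and 32 labels of at least 20 such cells, the correlation of mean hemoglobin UMIs with the label's median depth was r = 0.75, 0.83 and 0.89 and rho = 0.49, 0.51 and 0.80 (labels of 1 library share its droplets, and no p is given). The highest means were 0.364 in cluster 2 of control replicate 1 (interval 0.222 to 0.562), 0.415 in cluster 2 of control replicate 2 (0.242 to 0.664) and 0.699 in cluster 5 of *Angpt1*ΔNC (0.603 to 0.806). The lowest were 0 in 27 cells of TM11, 0.0220 in TM6 and 0.103 in cluster 25. For each 10,000 UMIs the order turned in *Angpt1*ΔNC, where cluster 2 was lowest (0.186) and cluster 25 highest (0.654).

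**Figure D4:**
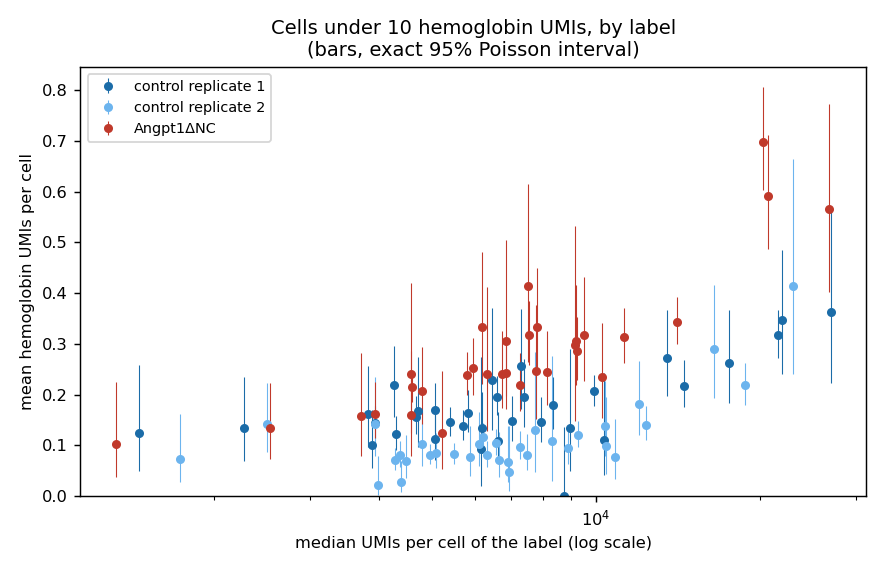
Mean hemoglobin UMIs per cell in cells under 10 such UMIs, against the label's median UMIs per cell (log axis), 1 point per label and library for labels of at least 20 cells, with the exact 95% Poisson interval of the mean. Points rise with depth in each library, from 0 to 0.364, from 0.0220 to 0.415 and from 0.103 to 0.699.

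The share of cells with a hemoglobin UMI followed the same depth. Over all kept cells the share with a hemoglobin UMI was 16.1%, 9.78% and 24.3% as counted. Thinned to 1000 UMIs a cell, with no cell shallower, it was 3.08%, 1.86% and 4.37%, with the libraries in the same order. Within the cells under 10 UMIs, the thinned share by label ran from 0 in TM11 to 7.91% in cluster 25 in control replicate 1, from 0.227% in SC to 4.36% in cluster 22 in control replicate 2, and from 1.69% in cluster 2 to 6.99% in cluster 25 in *Angpt1*ΔNC.

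The ratio of the members was read in the filled barcodes and in the few UMIs of other cells. Alpha chains were 26.5%, 25.5% and 25.6% of the hemoglobin UMIs in filled barcodes. Over the kept cells with 1 to 9 UMIs they were 24.7% (interval 22.6 to 26.9), 26.4% (23.8 to 29.2) and 22.7% (20.8 to 24.6). The interval held the value of the filled barcodes in both controls and lay below it in *Angpt1*ΔNC. By label, the interval held that value in 24 of 24, 16 of 16 and 20 of 23 labels with at least 20 such UMIs, the exceptions being clusters 2 and 24 and TM1 of *Angpt1*ΔNC.

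The share of *Hba-a2*, the downstream alpha gene, differed between the libraries. It made up 1.53%, 1.79% and 40.5% of alpha UMIs in filled barcodes. In rich kept cells that were not filled it made up 1.52%, 1.97% and 40.8%, and in kept cells with 1 to 9 UMIs 2.26% (interval 1.04 to 4.24), 2.14% (0.790 to 4.61) and 40.1% (35.5 to 44.8). The same difference between the *Angpt1*ΔNC library and both controls was thus read in the filled barcodes, in the rich cells and in the cells with 1 to 9 UMIs. By label, the interval held the value of the filled barcodes in 23 of 24, 16 of 16 and 22 of 23 labels with at least 20 such UMIs. The exceptions were cluster 5 of control replicate 1 (9.80%, interval 3.26 to 21.4) and TM7 of *Angpt1*ΔNC (8.33%, 0.211 to 38.5, from 12 alpha UMIs). The share of *Hbb-bt* among beta UMIs, by contrast, was 13.1%, 10.7% and 12.6% in filled barcodes.

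Within *Angpt1*ΔNC the barcodes fell into 2 sets. Among 187 barcodes with at least 1000 hemoglobin UMIs, 28 had an *Hba-a2* share of 18.1% to 26.8% and 159 one of 37.4% to 48.6%, with none between 26.8% and 37.4%. The 153 and 124 such barcodes of the controls had 0.305% to 3.07% and 0% to 2.78%. In the controls the SD between barcodes, 0.451 and 0.462 percentage points, was close to the 0.390 and 0.457 that counting alone gives. In the 2 sets of *Angpt1*ΔNC the SDs were 2.25 and 2.39, against 1.48 and 1.71 from counting. Kept cells were found in both sets, 7 and 43 in number. *Hbb-bt* was a median of 5.15% of beta UMIs in the lower set and 12.5% in the upper.

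The beta pair varied from barcode to barcode in each library. *Hbb-bt* made up 0.820% to 27.0% of beta UMIs in control replicate 1, 1.25% to 23.7% in control replicate 2 and 0.454% to 22.4% in *Angpt1*ΔNC, with medians of 11.5%, 8.33% and 11.1%. The SDs between barcodes, 6.41, 5.24 and 6.12 percentage points, were far above the 0.541, 0.545 and 0.491 from counting. The quartiles of the *Hbb-bt* share were 6.03% to 15.6%, 5.97% to 13.4% and 4.26% to 15.2%. Those of the alpha share of all hemoglobin lay closer together, at 24.3% to 28.4%, 23.2% to 27.7% and 23.2% to 28.5%. Its full range was not narrower, at 18.3% to 44.97%, 13.7% to 43.5% and 8.35% to 39.2%.

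**Figure D5:**
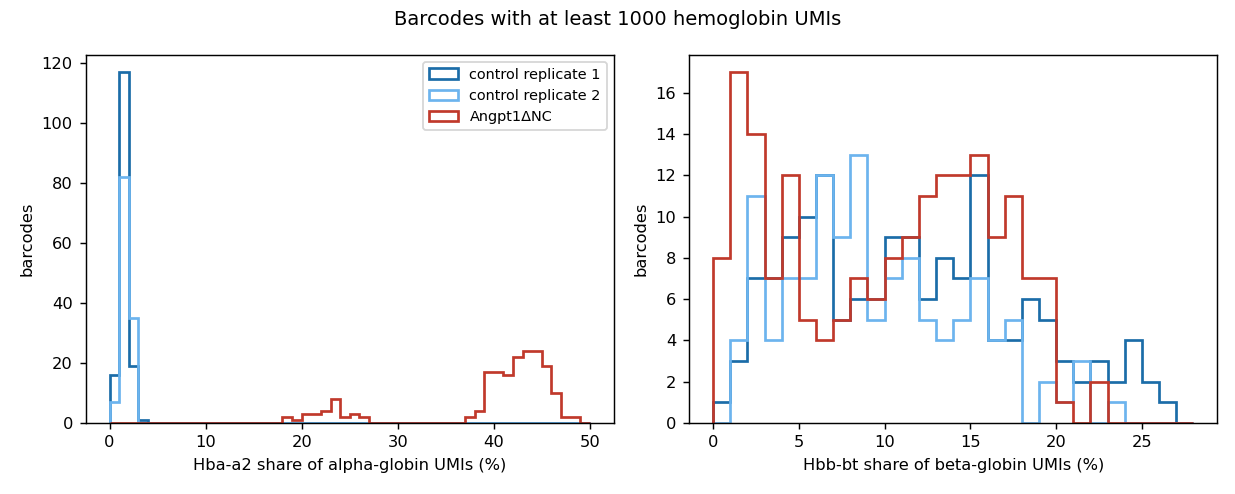
Number of barcodes with at least 1000 hemoglobin UMIs by the *Hba-a2* share of alpha UMIs (left, %) and by the *Hbb-bt* share of beta UMIs (right, %), 1 line per library. On the left both controls stay under 3.07% and *Angpt1*ΔNC has 2 groups, of 28 and 159 barcodes. On the right the 3 libraries overlap from under 2% to over 20%.

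The few kept cells with 10 to 99 hemoglobin UMIs had another makeup. In 14 of 27 alpha chains were over 50% of the hemoglobin UMIs (6, 3 and 5 of 9), up to 92.9%, against none of 464 barcodes with at least 1000 UMIs, where the highest was 44.97%. In control replicate 1, 3 cells of TM7 had 30 *Hba-a1* and 5 *Hbb-bs*, 17 and 6, and 28 and 9 UMIs. In control replicate 2 a cell of cluster 8 had 56 *Hba-a1* and 13 *Hbb-bs* UMIs. In *Angpt1*ΔNC a cell of cluster 9 had 10 *Hba-a1*, 1 *Hba-a2* and 1 *Hbb-bs* UMI. The 27 cells carried 16 labels and held 0, 2 and 0 *Alas2* UMIs.

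Between the genotypes the hemoglobin level in kept cells was 1569 and 819 UMIs for each 1000000 in the controls and 3687 in *Angpt1*ΔNC, 3.09 times the control mean. The background for such differences is that 2.37% of 14748 genes with at least 100 UMIs lay above both controls and at least 2-fold above their mean, and 6.38% lay as far below. By that rule *Hbb-bs* (548 and 1013 in the controls, 2398 in *Angpt1*ΔNC, 3.07-fold), *Hbb-bt* (68.0, 158 and 334, 2.96-fold) and *Hba-a2* (3.83, 6.13 and 391, 78.5-fold) were called higher. *Hba-a1* (199, 393 and 563, 1.90-fold) was not. These members were selected on such values, and nothing is read from the count. The alpha pair summed, which does not rest on the uncertain split of reads between its genes, stood at 399 and 203 in the controls and 955 in *Angpt1*ΔNC (3.17-fold), and the beta pair at 1170.4, 616 and 2732 (3.06-fold). Any reads given to neither gene of a pair are missing from these sums. Whether alpha alleles of the mixed background or the assignment of reads set the *Hba-a2* values was not tested.

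The higher level of *Angpt1*ΔNC over all kept cells lay mostly in the 4 labels with most rich cells. Clusters 7, 8, 9 and 24 together stood at 36.5 and 20.7 hemoglobin UMIs per 10,000 in the controls and 174 in *Angpt1*ΔNC. All other labels, with 81.2% of the kept cells of *Angpt1*ΔNC, stood at 9.06 and 4.75 in the controls and 6.57 in *Angpt1*ΔNC, which was between the controls. The 4 labels were grouped after their values were seen, by their number of rich cells, so that this split follows in part from that choice. In cells under 10 hemoglobin UMIs of all other labels the level was 0.205 and 0.132 in the controls. There it was 0.295 in *Angpt1*ΔNC, above both.

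The controls themselves differed by 1.98-, 1.60-, 1.85- and 2.32-fold for *Hba-a1*, *Hba-a2*, *Hbb-bs* and *Hbb-bt*, each higher in control replicate 1. Of all tested genes 3.46%, 6.86%, 4.22% and 2.22% differed as far between the controls, in the same order of members. The *Angpt1*ΔNC level was 2.35 times control replicate 1 and 4.50 times control replicate 2. In cells under 10 hemoglobin UMIs it was 29.4 for each 1000000 against 21.1 and 13.3, or 1.72 times the control mean. *Hba-a1* alone was there at 4.00 against 5.09 and 3.43, between the controls, and *Hba-a2* at 2.68 against 0.118 and 0.0750, above both. As the split within this pair is uncertain, *Hba-a1* alone does not give the level of alpha chains.

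Counted over all called barcodes, hemoglobin was 77.0 and 47.2 UMIs per 10,000 in the controls and 104 in *Angpt1*ΔNC, 1.67 times their mean. How much blood went into each pool is not given in the sources used here, and it cannot be told apart from the genotype with 1 *Angpt1*ΔNC library. *Sag* also differed between the libraries, in 6.91%, 2.43% and 1.08% of kept cells, and its part in the hemoglobin result was not tested.

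Over the 100 groups of label and library with at least 20 cells, *Alas2* followed the hemoglobin level most closely, with r = 0.81 on log2(UMIs per 10,000 + 0.1), of 14744 genes. The next was *Ube2l6* at r = 0.48, and the 8 after it (*Gm11696*, *4930426L09Rik*, *Sgpl1*, *Ccdc148*, *Cd274*, *Synpr*, *Arid3a* and *Tcirg1*) had r = 0.44 to 0.47. Within the libraries *Alas2* had r = 0.84, 0.71 and 0.86. Without cells of at least 10 hemoglobin UMIs its r was -0.07. Groups of 1 library share its droplets and labels share cell types, and no p is given.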

How the data were processed

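The 3 droplet libraries of the iridocorneal angle and limbus were analysed. The authors mapped reads to mm10 and deposited UMI counts per gene and called barcode, and tables of kept cells with a cluster label, whose integrated gene columns were not used here. The submitters' notes name Cell Ranger 2.1.1 and Seurat 3.1.3, whereas the matrix headers state 3.0.2. Per the study's methods, barcodes with fewer than 200 genes, fewer than 1000 UMIs or over 10% mitochondrial reads were removed, then scDblFinder doublets. Barcodes that pass these filters but carry no label are called removed as doublets here.

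Counts were used as deposited. Hemoglobin UMIs were summed by barcode, label and library, with exact 95% intervals for counting error only (PCR and droplet effects are not covered). Thinning was computed exactly from the hypergeometric distribution. Level differences between genotypes used kept cells and genes with at least 100 UMIs. Sequences came from GENCODE M21 transcripts and RefSeq promoters, both on GRCm38. The statistics across genes were tested on simulated data. The thresholds of 10, 100 and 1000 hemoglobin UMIs, the share of 70%, the split of the *Hba-a2* share at 30%, the alpha share of 50%, the groups of labels and the comparison genes were set after seeing the counts. Python 3.11.15, numpy 2.4.6, scipy 1.17.1, pandas 2.3.3 and matplotlib 3.10.9 were used.

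The members and gene lists were chosen with earlier results of these data known. Genes were named by rule: the members, the lists, the 10 with the highest correlation with hemoglobin over label and library groups, and the 10 with the highest fold in barcodes with at least 100 hemoglobin UMIs that were detected in at least 25% of these. Genes or barcodes named outside it are marked where given. Alternatives were other cell sets, weightings, thinning to 1000 or 2000 UMIs and leaving out each control. No test was made between genotypes, as there is 1 *Angpt1*ΔNC library. Some genes that the rule names are not reported here.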

Additional observations from a re-analysis of the deposited data

How the results depend on the processing

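Of 92 values recomputed, 42 moved by less than a set limit and 50 moved further. A reversal was looked for only in the *Angpt1*ΔNC to control ratio under other cell sets and weightings, where 0 reversed. The limit was the spread between the controls, the counting interval for the share of rich cells, or a fixed fold for the number of filled barcodes. For the range over labels, the setting of 1000 UMIs gave the same values as the mean over cells. Those values are counted in the 92 but are not a separate alternative. Values are given in the order control replicate 1, control replicate 2, *Angpt1*ΔNC. The level per 10,000 UMIs in kept cells (15.7, 8.19 and 36.9) was 77.0, 47.2 and 104 over all called barcodes, 0.211, 0.133 and 0.294 without cells of at least 10 hemoglobin UMIs, 0.250, 0.177 and 0.340 without those of at least 100, and 13.9 in control replicate 2 as a mean over labels. The *Angpt1*ΔNC to control ratio (3.09) was 1.67, 1.72 and 1.59 in the first 3 of these settings and ran from 2.35 to 4.50 with 1 control left out. The share of positive cells was 3.08%, 1.86% and 4.37% thinned to 1000 UMIs and 5.52%, 3.28% and 7.45% thinned to 2000. The share held by the top 1% of cells was 98.9% and 99.1% in the controls with doublets included, and 86.9%, 96.6% and 65.1% over all called barcodes. It was 13.0%, 19.2% and 10.2% without cells of at least 10 UMIs, and 25.8%, 39.0% and 21.5% without those of at least 100. The ratio of the highest to the lowest label was 7.67, 10.3 and 3.52 and then 11.97, 13.3 and 5.90 without these cells, the first of each a lower bound. The alpha share was 26.2% and 25.5% in the controls over all called barcodes, 24.7%, 26.4% and 22.7% without cells of at least 10 UMIs, and 29.4% and 31.5% in the controls without those of at least 100. The *Hba-a2* share of alpha was 40.6% in *Angpt1*ΔNC over all called barcodes, 2.26%, 2.14% and 40.1% without cells of at least 10 UMIs, and 2.31% in control replicate 1 and 38.1% in *Angpt1*ΔNC without those of at least 100. With a threshold of 1000 UMIs, chosen after seeing the data, 0.167% of kept cells of control replicate 2 were rich. Leaving out rich cells removes by construction most UMIs, and the cause of the other shifts was not tested. The pools number 3, and for ratios the spread was set on the log scale after seeing the data.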
